A study of Mus musculus with 53 samples.

Results

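Collagens are secreted or membrane-bound proteins whose chains wind into triple helices, and the mouse genes that encode the chains were followed here through the cerebellum of pups in which Atoh1Cre deleted Insm1 or both Tead1 and Tead2. Members were all genes whose symbol is Col, a number, a and a number (Col9a1, for example), present in both the bulk gene tables and the single-cell matrices: 44 genes of 55573 in the bulk tables and of 57010 in the single-cell matrices. Atoh1Cre is a transgene that makes Cre recombinase under control of Atoh1, the transcription factor gene of rhombic lip derivatives, so recombination reaches granule cell progenitors and their descendants. Insm1 encodes a zinc finger transcriptional repressor of neuroendocrine and neuronal progenitors, and Tead1 and Tead2 encode TEAD DNA-binding proteins that act with the co-activators Yap and Taz. Bulk RNA was taken at postnatal day 2 (P2) from 4 Insm1 controls (Insm1fl/fl), 4 Insm1 mutants (Atoh1Cre; Insm1fl/fl), 3 Tead1/2 controls (Tead1fl/fl; Tead2fl/fl) and 4 Tead1/2 mutants (Atoh1Cre; Tead1fl/fl; Tead2fl/fl), each library from a single pup. Single-cell RNA was taken at P7 from 2 controls and 3 mutants of each deletion, 1 cerebellum per library. The bulk controls carry the floxed alleles and list no Cre, so no group here shows Cre alone. Library 1 of each P7 group held all lobules and libraries 2 and 3 lacked lobules IX and X.

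Fibrillar collagens build the load-bearing fibrils of connective tissue, and FACIT collagens, the fibril-associated class with interrupted helices, sit on the surface of those fibrils. Type IV chains form the sheet of basement membranes around vessels and over the brain surface, type VI chains form beaded filaments, and multiplexins such as types XV and XVIII carry proteoglycan side chains in basement membranes. A further class spans the plasma membrane with the triple helix outside the cell. In brain most collagen protein is found in meninges, vessels and basement membranes, while some neurons and glia make particular members.

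The targeted genes were read first in every library, as counts-per-million (CPM). Insm1 was at 30.8, 31.5, 56.6 and 71.9 CPM in the P2 Insm1 controls and at 10.7, 8.48, 16.2 and 15.3 in the Insm1 mutants, and in the P7 granule lineage at 63.9 and 69.8 against 27.1, 7.61 and 9.36. Tead2 in the P7 granule lineage was at 32.5 and 34.2 in the Tead1/2 controls and 13.7, 14.2 and 12.8 in the mutants, while at P2 it was at 23.3, 25.6 and 22.3 against 19.4, 19.4, 17.3 and 25.7. Tead1 overlapped between groups at P2, at 53.7, 46.3 and 34.6 against 39.5, 36.8, 49.9 and 42.7, and was higher in the mutants in the P7 granule lineage, at 1204, 1345 and 1219.5 against 598 and 601. Its counts cover the whole gene and no source used here gives the deleted exons, so Tead1 does not check these labels. The library labelled Tead1/2 mutant 4 held 13 counts of Myog, a muscle transcription factor, where the other 3 mutants held 1251 to 2328. Together with its Tead2 level this sets it apart from its group, and the P2 changes of the members called at P2 are given with and without it, while the DESeq2 and sex-term fits hold all libraries. Xist, read from the X chromosome of female pups, was present in all 4 Insm1 controls, 2 of 4 Insm1 mutants, 1 of 3 Tead1/2 controls and, of the Tead1/2 mutants, in the library labelled mutant 4 alone. Bulk library totals ran from 28066600 to 64518800 counts. At P7, 79838 barcodes passed the filters, 34926 of them (43.7%) were removed as likely doublets, and 44912 cells with 17448867 to 48644019 UMIs per library were kept; 0 barcodes were shared between libraries. The removed share was 51.2% and 53.2% in the Insm1 controls, 37.4% to 49.6% in the Insm1 mutants, 46.2% and 46.6% in the Tead1/2 controls and 30.1% to 41.0% in the Tead1/2 mutants. Median UMIs per barcode were 4409 to 7733 in kept cells and 15970 to 26400 in removed ones, so that 10.4% to 37.5% of the UMIs of a library were kept. Values below are CPM scaled by edgeR's TMM factors unless another unit is named. Sums of marker genes at P7, levels in groups of P7 clusters and shares of mutant-minus-control differences are from CPM without TMM factors. Changes are log2 mutant over control with their standard error (SE), and calls use an adjusted p under 0.05, adjusted over all genes tested. The SE of an edgeR change was worked back from the change and the F statistic of its test. The labels give Insm1 and Tead1/2 bulk libraries as different batches, so levels are compared only within an allele.

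At P2 the clearest change among collagen genes was a rise of Col9a1, called in the Insm1 mutants. Col9a1 also lay above the controls in every mutant library of the Tead deletion. The edgeR test with all of those libraries did not call it. Col9a1 (ENSMUSG00000026147.16; chr1:24177589-24252738, GRCm38.p6) encodes a chain of type IX collagen, a FACIT collagen best known from the surface of cartilage fibrils and from the vitreous of the eye. The gene has an upstream and a downstream transcription start, and the 250 bases before each start are given first because Col9a1 carries the P2 result. Capitals mark matches to CANNTG, the E-box motif bound by basic helix-loop-helix factors such as Atoh1 and the myogenic factors, on both strands. The sequences are from RefSeq (GRCm38.p6), 5′ to 3′.
Col9a1 chr1:24177360-24177609 (+ strand): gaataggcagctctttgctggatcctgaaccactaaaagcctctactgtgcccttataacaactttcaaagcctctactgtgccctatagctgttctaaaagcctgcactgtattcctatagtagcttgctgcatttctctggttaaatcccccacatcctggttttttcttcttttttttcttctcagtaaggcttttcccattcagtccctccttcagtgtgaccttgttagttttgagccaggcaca
Col9a1 chr1:24194953-24195202 (+ strand): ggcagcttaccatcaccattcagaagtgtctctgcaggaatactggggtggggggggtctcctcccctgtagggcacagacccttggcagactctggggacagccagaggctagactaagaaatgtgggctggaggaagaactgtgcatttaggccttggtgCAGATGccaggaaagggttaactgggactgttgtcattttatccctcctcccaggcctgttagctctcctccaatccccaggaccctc
The upstream window held 0 matches and the downstream window 1, and neither held GGAATG, the core motif of TEAD factors.

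Col9a1 was at 6.09, 5.84, 5.25 and 4.67 CPM across the Insm1 controls and 16.5, 14.6, 13.3 and 14.5 across the Insm1 mutants. Col9a1 in the Tead1/2 libraries was at 6.54, 6.36 and 5.03 in the controls and 28, 24.3, 26 and 7.21 in the mutants. All 4 Insm1 mutants lay above all 4 controls, and the same held for the Tead1/2 libraries, with the library labelled Tead1/2 mutant 4 just above its controls and far below the other 3 mutants. The log2 change of Col9a1 in the Insm1 mutants was 1.43 (SE 0.11, adjusted p = 0.000416), and Col9a1 was the only 1 of the 43 tested members called at an adjusted p under 0.05, where 0.689% of all 19582 genes tested were called (0.480% higher). The Tead1/2 mutants had a log2 change of 1.84 (SE 0.38, adjusted p = 0.0898), and 0 of 43 members were called, as were 0.0% of all 20247 genes (4052 genes and 10 members had an unadjusted p under 0.05). Without the library labelled Tead1/2 mutant 4 the change was 2.11 (SE 0.10, adjusted p = 4.64e-06), and 5 of 43 members were called, 3 higher and 2 lower, against 3.19% of all genes. The difference between both mutant effects on Col9a1 was 0.42 (SE 0.41, adjusted p = 0.912) with all libraries and 0.70 (SE 0.16, adjusted p = 0.303) without mutant 4; 0 of 43 members were called for that difference, as were 0.0% of 20837 genes (1435 genes and 3 members had an unadjusted p under 0.05).

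**Figure D1:**
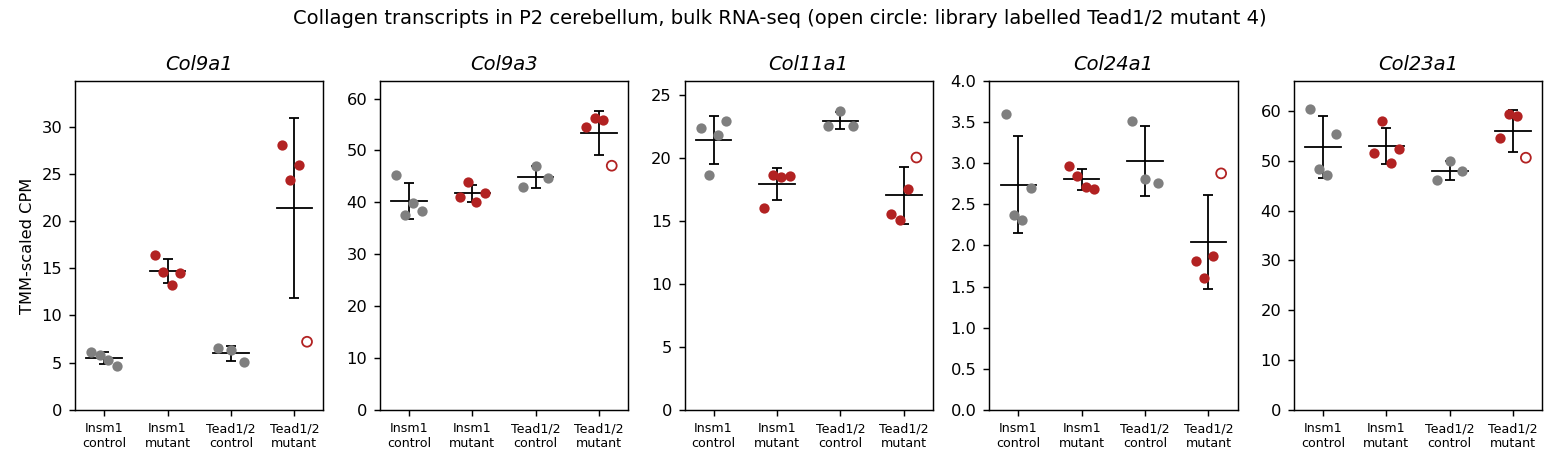
TMM-scaled CPM (y axis) of collagen genes in each P2 bulk library, grouped on the x axis by genotype; each point is a library, the open circle is the library labelled Tead1/2 mutant 4, and black lines with bars give the mean and SD of the group. Col9a1 is higher in every mutant library than in its controls, and the library labelled Tead1/2 mutant 4 sits at 7.21 CPM against 24.3 to 28 in the other 3 mutants.

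Col9a2 and Col9a3 encode the chains that join the Col9a1 product in the type IX trimer. Col9a2 (ENSMUSG00000028626.5) was at 11.7, 9.23, 9.19 and 9.86 CPM across the Insm1 controls and 10.9, 12, 9.99 and 10.4 across the Insm1 mutants. Col9a2 in the Tead1/2 libraries was at 9.96, 10.8 and 11.9 in the controls and 10.2, 11.3, 10.3 and 10.9 in the mutants. The Col9a2 groups overlapped, with log2 changes of 0.11 (SE 0.10, adjusted p = 0.767) and -0.02 (SE 0.08, adjusted p = 0.915). Col9a3 (ENSMUSG00000027570.15) was at 45.2, 37.5, 39.9 and 38.4 CPM across the Insm1 controls and 41.1, 44, 40.1 and 41.7 across the Insm1 mutants. Col9a3 in the Tead1/2 libraries was at 42.9, 47 and 44.7 in the controls and 54.4, 56.2, 55.8 and 47.1 in the mutants. For Col9a3 the Insm1 groups overlapped, with a change of 0.05 (SE 0.07, adjusted p = 0.850), while the Tead1/2 mutants all lay above their controls, the library labelled mutant 4 barely so. The Tead1/2 change of Col9a3 was 0.25 (SE 0.07, adjusted p = 0.113) with all libraries and 0.30 (SE 0.06, adjusted p = 0.0206) without that library. Neither of these chains was called in the Insm1 comparison, in which Col9a1 was.

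Besides Col9a1 and Col9a3, the Tead1/2 comparison without mutant 4 called Col11a1 and Col24a1, both minor fibrillar collagens, as lower and Col23a1, a transmembrane collagen, as higher. Col11a1 (ENSMUSG00000027966.20; chr3:114030479-114220756) was at 22.4, 18.7, 21.8 and 22.9 CPM across the Insm1 controls and 16, 18.6, 18.5 and 18.6 across the Insm1 mutants. Col11a1 in the Tead1/2 libraries was at 22.6, 23.7 and 22.6 in the controls and 15.6, 15.1, 17.6 and 20.05 in the mutants. Both mutant groups lay below their controls, with log2 changes of -0.26 (SE 0.09, adjusted p = 0.363) for Insm1, -0.44 (SE 0.09, adjusted p = 0.0898) for Tead1/2 and -0.52 (SE 0.07, adjusted p = 0.00557) for Tead1/2 without mutant 4. Col24a1 (ENSMUSG00000028197.4) was at 3.6, 2.37, 2.31 and 2.7 CPM across the Insm1 controls and 2.97, 2.85, 2.72 and 2.68 across the Insm1 mutants. Col24a1 in the Tead1/2 libraries was at 3.52, 2.81 and 2.76 in the controls and 1.81, 1.61, 1.87 and 2.88 in the mutants. The library labelled Tead1/2 mutant 4 lay among the controls for Col24a1, the other 3 mutants lay below them, and the change was -0.60 (SE 0.20, adjusted p = 0.159) with all libraries and -0.79 (SE 0.16, adjusted p = 0.0340) without it. Col23a1 (ENSMUSG00000063564.13; chr11:51289679-51583925) was at 60.5, 48.5, 47.2 and 55.4 CPM across the Insm1 controls and 51.7, 58, 49.6 and 52.5 across the Insm1 mutants. Col23a1 in the Tead1/2 libraries was at 46.2, 49.9 and 48 in the controls and 54.7, 59.5, 59.1 and 50.7 in the mutants. The Insm1 groups overlapped (log2 change 0.00, SE 0.09, adjusted p = 0.996), and the Tead1/2 mutants lay above their controls, by 0.22 (SE 0.06, adjusted p = 0.122) with all libraries and 0.26 (SE 0.06, adjusted p = 0.0461) without mutant 4.

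Over all 43 members the median log2 change at P2 was -0.05 in the Insm1 mutants and -0.17 in the Tead1/2 mutants (-0.16 without mutant 4), with medians over all genes tested of 0.01 and -0.01. By class, the median log2 changes in the Insm1 and Tead1/2 mutants were 0.11 and 0.04 for FACIT collagens, -0.10 and -0.25 for basement membrane collagens, -0.20 and -0.30 for beaded filament collagens and -0.26 and -0.21 for fibrillar collagens, and members of the last 3 classes were called in neither comparison with all libraries. Without Tead1/2 mutant 4 the Tead1/2 medians were 0.10, -0.27, -0.37 and -0.28 in that order. Fibroblast markers, genes of the cells in which most beaded filament and fibrillar members are highest, had a median log2 change at P2 of -0.49 in the Insm1 mutants and 0.21 in the Tead1/2 mutants (0.23 without mutant 4), with 0 of 16 called in each, and summed to 349.6 to 477 CPM in the Insm1 controls, 309.8 to 417 in the Insm1 mutants, 326 to 381 in the Tead1/2 controls and 304 to 417 in the Tead1/2 mutants; their part in these values was not tested. Over the 4 transmembrane members the changes ran from -0.91 to 0.45 and from -0.23 to 0.22, and over the 2 tested network members from 0.13 to 0.23 and from -0.22 to 0.09. The multiplexins Col15a1 and Col18a1, found in basement membranes of vessels and muscle, did not pass the test in either comparison. Col15a1 was at 15, 9.49, 8.86 and 14.6 CPM across the Insm1 controls and 4.17, 8.77, 4.06 and 4.92 across the Insm1 mutants. Col15a1 in the Tead1/2 libraries was at 7.68, 7.76 and 7.79 in the controls and 3.2, 6.42, 6.33 and 7.4 in the mutants. Mutants and controls did not overlap for Col15a1 in either comparison, and the Insm1 change was -1.13 (SE 0.27, adjusted p = 0.134). Col18a1 was at 46, 34.4, 31.9 and 37.6 CPM across the Insm1 controls and 20.2, 28.3, 25 and 27.7 across the Insm1 mutants. Col18a1 in the Tead1/2 libraries was at 25.2, 30.5 and 26.5 in the controls and 17.6, 24.1, 21.6 and 25.3 in the mutants. For Col18a1 the Insm1 groups did not overlap, with a change of -0.57 (SE 0.13, adjusted p = 0.125), and the Tead1/2 groups did. The tool DESeq2, run as an alternative, called Col9a1, Col15a1, Col18a1 and Col28a1 in the Insm1 comparison, beside 1.59% of all genes. For Tead1/2 it called Col9a1, Col9a3 and Col11a1, beside 4.72% of all genes (2.87% higher, 1.85% lower). For the difference it called 0 members, beside 0.0816% of all genes (0.0432% higher, 0.0384% lower). With sex, read from Xist, as a term of the fit the Col9a1 change was 1.51 (adjusted p = 0.00248) for Insm1 and 1.61 (adjusted p = 0.0960) for Tead1/2, and 1 and 0 members were called, beside 0.449% and 0.0148% of all genes. Summed CPM of endothelial marker genes was 240.4 to 264 in the Insm1 controls and 177 to 240.2 in the mutants, and the part of vessels in these values was not tested.

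Marker genes of other cell types were also read in the P2 libraries. With all libraries no gene was called in the Tead1/2 comparison, so none of these markers was. Summed levels of the 20 skeletal muscle markers were 36.1 to 62.8 CPM in the Insm1 controls and 196 to 322 in the Insm1 mutants. Among the Tead1/2 libraries they summed to 44.1 to 47.7 in the controls and 210.0, 256 and 276 in the other mutants, with 42 in the library labelled Tead1/2 mutant 4. That library had 15 of the 20 muscle markers under 1 CPM, its controls 14, and it lay near its controls in Col9a1 as well. Their part in the P2 collagen changes was not tested. The 9 chondrocyte markers, genes of the cell type in which type IX collagen is abundant, summed to 37.3 to 49.9 CPM in the Insm1 controls and 36.5 to 50.9 in the mutants, with 7 of the 9 under 1 CPM in every library, and in the Tead1/2 libraries to 23.8 to 32 and 29.1 to 36.5. Sox9, which is in this list, is also in the list of astroglia markers. Neither these sums nor a call of Sox9 is therefore particular to chondrocytes. Of the chondrocyte markers 3 were tested in the Insm1 comparison and 1 was called, Ucma, which encodes a secreted cartilage matrix protein. Across the Insm1 control libraries Ucma read 4.93, 7.21, 4.4 and 3.24 CPM, against 14.2, 10.2, 9.36 and 10.6 in the mutants, a log2 change of 1.16 (SE 0.22, adjusted p = 0.0486). In the Tead1/2 libraries Ucma was at 5.53, 4.02 and 4.35 in the controls and 14.7, 11.7, 11.2 and 5.47 in the mutants, a change of 1.22 (SE 0.27, adjusted p = 0.0948) with all libraries and 1.43 (SE 0.14, adjusted p = 0.000961) without mutant 4, where it was 1 of 4 tested markers and the called one. The library labelled Tead1/2 mutant 4 lay within its controls. Over all tested chondrocyte markers the median log2 change was -0.22 in the Insm1 comparison and -0.10 in the Tead1/2 comparison without mutant 4, and Ucma was the 1 tested marker with a positive change in each. At P7, where Col9a1 was also called, 0 of 5 tested chondrocyte markers were called over all cells of the Insm1 mutants, and in the Tead1/2 mutants Comp was called higher and Sox9 and Ucma lower. The part of such cells in the Col9a1 values was not tested. In bulk RNA, fewer cells of a type and less RNA per cell cannot be told apart.

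At P7 the single-cell data show which classes of cells carried the collagen transcripts. Clusters were made without the collagen genes and named from marker genes, each class name standing for cells that resemble that type, so collagen levels by class are a description without a test. No cluster of the kept cells was named mural, Purkinje or ependymal. With doublets kept, clusters of 245 mural, 629 Purkinje and 420 ependymal and choroid plexus cells were named. The class shares and ranks below therefore give no values for these types. Of 491890 collagen UMIs in all kept cells, 37.3% were in fibroblast-like cells, 24.2% in muscle-like cells, 18% in the granule lineage, 8.73% in unnamed clusters and 6.64% in astroglia. These shares pool libraries of unlike make-up, and the 3 Tead1/2 mutants gave 72583, 108021 and 111798 of the UMIs. In the controls the granule lineage held 12666 of 29835 and 7488 of 18358 collagen UMIs (Insm1) and 12670 of 35076 and 8854 of 20253 (Tead1/2), fibroblast-like cells 11270, 6157, 14251 and 7409 in the same order, and muscle-like cells 74, 96, 0 and 0. The granule lineage thus held the most in 3 of the 4 controls and fibroblast-like cells in Tead1/2 control 1. As CPM of all UMIs in a class, without TMM factors (class CPM), collagen genes took 22829.5 in fibroblast-like cells, 3098 in muscle-like cells, 2204 in endothelial cells, 1715 in astroglia and 570.3 in the granule lineage. Of the 44 members, 29 had their highest level in fibroblast-like cells, 6 in muscle-like cells, 3 in the oligodendrocyte lineage, 2 in astroglia, 2 in endothelial cells and 1 each in GABAergic interneurons and microglia. For 4 of these, Col17a1 (endothelial, 2 UMIs), Col10a1 (microglia, 5), Col6a4 (muscle-like, 9) and Col6a5 (fibroblast-like, 8), the highest level was under 1 class CPM, and their order among classes was not resolved at this depth. The largest member was Col3a1 in fibroblast-like cells, with 4120 class CPM, Col23a1 in muscle-like cells with 1929, and Col11a1 in the granule lineage with 187.

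**Figure D2:**
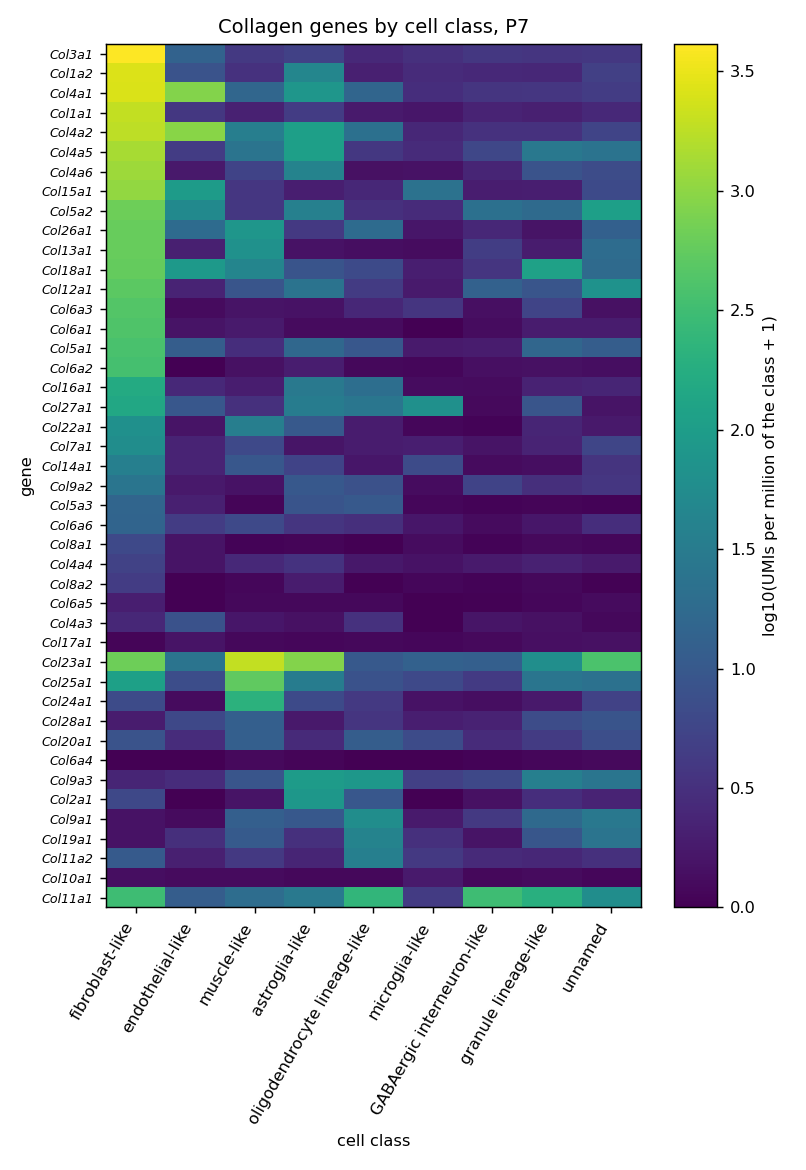
Collagen genes (rows) by cell class at P7 (columns), coloured by level in class CPM on a log scale as the colour bar gives it. Col1a1, Col3a1 and Col6a1 are highest in fibroblast-like cells, and Col23a1, Col24a1 and Col25a1 in muscle-like cells.

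Members differed in the classes that held their UMIs. Type I and III collagens were almost wholly fibroblast-like: 97.4% of Col1a1 UMIs, 97.4% of Col3a1 and 93.7% of Col1a2, and of the type VI genes 95.6% of Col6a2 and 93.4% of Col6a1. Muscle-like cells held 94.0% of Col24a1 UMIs, 75.8% of Col25a1, 59.2% of Col23a1 and 57.9% of Col22a1. Unnamed cluster 25, with 1531 cells of which 2 came from controls, had 16 of the 20 muscle markers raised but stayed outside the muscle-like class because its top genes held more markers of mural cells than of muscle, so the muscle-like counts and shares leave it out. It held 15% (Insm1) and 9.83% (Tead1/2) of the Col23a1 difference over all cells and 34.2% and 15.2% of the Col13a1 difference. The granule lineage held 70.0% of Col18a1 and 64.3% of Col11a1. Such shares depend on the size of a class, and the granule lineage held 155137690 of the 311947100 UMIs of all genes in kept cells. Muscle-like cells held 38457807 and fibroblast-like cells 8033909. By level, Col18a1 (575 class CPM) and Col22a1 (63.4) were highest in fibroblast-like cells. Col9a1 was spread more widely, with 48.9% of its UMIs in the granule lineage, 25.3% in unnamed clusters and 12.5% in the oligodendrocyte lineage, where its level was highest, at 58.5 class CPM. Cells of the muscle-like class were 4 and 1 in the Insm1 controls, 365, 392 and 227 in the Insm1 mutants, 0 and 0 in the Tead1/2 controls and 732, 975 and 636 in the Tead1/2 mutants. Fibroblast-like cells numbered 58 and 57, then 66, 46 and 36, in the Insm1 libraries, and 75 and 30, then 97, 175 and 238, in the Tead1/2 libraries. With doublets kept, fibroblast-like cells numbered 325 and 335 in the Insm1 controls, 210, 199 and 188 in the Insm1 mutants, 280 and 137 in the Tead1/2 controls and 185, 416 and 509 in the Tead1/2 mutants. As a share of kept cells, fibroblast-like cells made up 1.11% and 1.42% of the Insm1 controls and 1.46%, 1.06% and 1.5% of the mutants after doublet removal, and 3.03% and 3.90% against 2.91%, 2.61% and 3.93% with doublets kept, with overlap under both. In the Tead1/2 libraries the share was 1.44% and 0.876% in the controls and 1.85%, 3.05% and 4.97% in the mutants, without overlap, and with doublets kept 2.89% and 2.14% against 2.47%, 4.28% and 6.69%, with mutant 1 between its controls.

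Over all kept P7 cells 41 members could be tested. In the Insm1 mutants 17 were called, 16 higher and 1 lower, where 29.3% of all genes were called (16.1% higher, 13.2% lower). Among Tead1/2 mutants 29 were called, 27 higher and 2 lower, where 45.2% of all genes were called (25% higher, 20.2% lower). The median log2 change of the members was 0.43 in the Insm1 mutants and 0.95 in the Tead1/2 mutants, beside medians over all genes of 0.02 and 0.05, and 36 and 32 of the 41 members were positive. By class, FACIT collagens had 7 of 9 tested members called higher in each comparison, with median changes of 0.66 and 1.19, and transmembrane collagens 3 of 4 in each, with medians of 1.14 and 2.69. Fibrillar collagens had 2 of 11 called higher and 1 lower in the Insm1 mutants and 7 higher and 1 lower in the Tead1/2 mutants. Beaded filament collagens had 0 of 4 and 3 of 4 called higher, and basement membrane collagens 2 of 6 and 4 of 6. Of the network collagens, sheet-forming types VIII and X, 0 of 2 tested members were called over all cells, with changes of -0.30 to 0.72 in the Insm1 mutants and -0.78 to -0.30 in the Tead1/2 mutants.

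Col24a1 and Col25a1, found mainly in muscle-like cells, had the largest log2 changes of the tested members in both comparisons. The 250 bases before the starts of Col23a1 and Col24a1, the members with the largest level and the largest share of UMIs in muscle-like cells, are shown with E-box matches in capitals. The start used for Col23a1 in the RefSeq promoter table lies downstream of the first base of the gene span given at P2, so most of its window lies inside that span.
Col23a1 chr11:51289670-51289919 (+ strand): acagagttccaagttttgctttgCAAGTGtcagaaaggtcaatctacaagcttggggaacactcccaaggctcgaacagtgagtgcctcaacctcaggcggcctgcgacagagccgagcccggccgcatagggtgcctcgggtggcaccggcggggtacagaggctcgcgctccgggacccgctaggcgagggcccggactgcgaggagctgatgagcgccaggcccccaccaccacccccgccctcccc
Col24a1 chr3:145292222-145292471 (+ strand): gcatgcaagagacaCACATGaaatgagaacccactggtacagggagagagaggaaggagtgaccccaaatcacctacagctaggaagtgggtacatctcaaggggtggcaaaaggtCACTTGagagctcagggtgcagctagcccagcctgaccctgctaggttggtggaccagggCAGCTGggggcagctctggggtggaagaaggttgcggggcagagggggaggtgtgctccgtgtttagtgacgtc
The Col24a1 window held 3 E-box matches and the Col23a1 window 1, and neither held the TEAD core motif. 

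Col23a1, the transmembrane collagen already described at P2, was at 100.4 and 118 CPM across the Insm1 controls and 301, 327 and 390.0 across the Insm1 mutants. Col23a1 in the Tead1/2 libraries was at 82.9 and 43.1 in the controls and 694, 735 and 619.5 in the mutants. Every mutant lay above every control. The log2 changes were 1.63 (SE 0.22, adjusted p = 0.000285) for Insm1 and 3.43 (SE 0.25, adjusted p = 1.02e-06) for Tead1/2, and their difference was 1.80 (SE 0.30, adjusted p = 0.00922). Muscle-like cells held 62% of the Insm1 mutant-minus-control difference in Col23a1 level and 76.4% of the Tead1/2 difference. Col24a1, a fibrillar collagen of bone and cornea, was at 0.991 and 1.24 CPM across the Insm1 controls and 10.8, 16.6 and 21.7 across the Insm1 mutants. Col24a1 in the Tead1/2 libraries was at 1.02 and 1.09 in the controls and 60.4, 60.5 and 44.9 in the mutants. All mutants again lay above all controls. Col24a1 changed by 3.89 (SE 0.33, adjusted p = 8.00e-06) and 5.71 (SE 0.33, adjusted p = 1.69e-07) on the log2 scale, with a difference of 1.83 (SE 0.51, adjusted p = 0.0798). Of the Col24a1 difference, 93.7% (Insm1) and 98% (Tead1/2) lay in muscle-like cells. Col25a1, a transmembrane collagen that developing muscle needs for motor innervation, was at 14.9 and 19.5 CPM across the Insm1 controls and 76.6, 88 and 92.6 across the Insm1 mutants. Col25a1 in the Tead1/2 libraries was at 13.2 and 9.5 in the controls and 164, 146 and 128 in the mutants. No mutant overlapped a control. Changes were 2.33 (SE 0.17, adjusted p = 2.00e-06) and 3.67 (SE 0.18, adjusted p = 4.39e-08), with a difference between alleles of 1.34 (SE 0.22, adjusted p = 0.00880). Muscle-like cells held 71.9% and 94.4% of those Col25a1 differences.

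Col22a1, a FACIT collagen of the muscle-tendon junction, was at 2.41 and 1.65 CPM across the Insm1 controls and 3.64, 3.32 and 5.84 across the Insm1 mutants. Col22a1 in the Tead1/2 libraries was at 2.04 and 2.31 in the controls and 12.7, 12 and 13.9 in the mutants. Mutants lay above controls in both comparisons. Its changes were 1.01 (SE 0.25, adjusted p = 0.0115) and 2.57 (SE 0.24, adjusted p = 7.53e-06), and the difference between alleles was 1.56 (SE 0.35, adjusted p = 0.0332). Muscle-like cells held 80.2% and 81.3% of the Col22a1 differences. Col22a1 lost its Insm1 call without Insm1 control 2 (log2 change 0.79, adjusted p = 0.0961). Col13a1, a transmembrane collagen found at the neuromuscular junction, was at 13.7 and 8.05 CPM across the Insm1 controls and 17.9, 15.2 and 18.4 across the Insm1 mutants. Col13a1 in the Tead1/2 libraries was at 12.2 and 10.3 in the controls and 37.5, 46.2 and 47.5 in the mutants. Both mutant groups lay above their controls, the Tead1/2 mutants by more. Changes were 0.64 (SE 0.20, adjusted p = 0.0310) and 1.96 (SE 0.20, adjusted p = 1.41e-05), with a difference of 1.32 (SE 0.27, adjusted p = 0.0238). Muscle-like cells held 38.8% and 53% of the Col13a1 difference and fibroblast-like cells 29.1% and 31.8%. Without Insm1 control 1 the Insm1 change of Col13a1 was 1.09 (SE 0.19, adjusted p = 0.00385). Col13a1 lost its Insm1 call without Insm1 control 2, Insm1 mutant 1 or Insm1 mutant 3 (log2 changes 0.32 to 0.60, adjusted p = 0.0708 to 0.230). Col26a1, a short collagen outside the main classes, was at 12.8 and 14.8 CPM across the Insm1 controls and 16.6, 16.2 and 21.6 across the Insm1 mutants. Col26a1 in the Tead1/2 libraries was at 12.7 and 8.98 in the controls and 34.1, 45.8 and 55.2 in the mutants. Mutant and control libraries did not overlap in either comparison, but the Insm1 change of 0.39 (SE 0.21, adjusted p = 0.204) was not called. The Tead1/2 change was 2.05 (SE 0.22, adjusted p = 2.31e-05) and the difference 1.65 (SE 0.30, adjusted p = 0.0132), and muscle-like cells held 84.9% and 56.6% of the Col26a1 differences. Col14a1, a FACIT collagen of tendon and skin fibrils, was at 1.78 and 1.91 CPM across the Insm1 controls and 2.44, 1.94 and 2.64 across the Insm1 mutants. Col14a1 in the Tead1/2 libraries was at 1.23 and 0.915 in the controls and 3.95, 5.21 and 4.4 in the mutants. All mutants lay above their controls, by 0.33 (SE 0.22, adjusted p = 0.288) in the Insm1 comparison, not called, and 2.05 (SE 0.22, adjusted p = 2.18e-05) in the Tead1/2 comparison. The difference between alleles was 1.72 (SE 0.31, adjusted p = 0.0127).

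**Figure D3:**
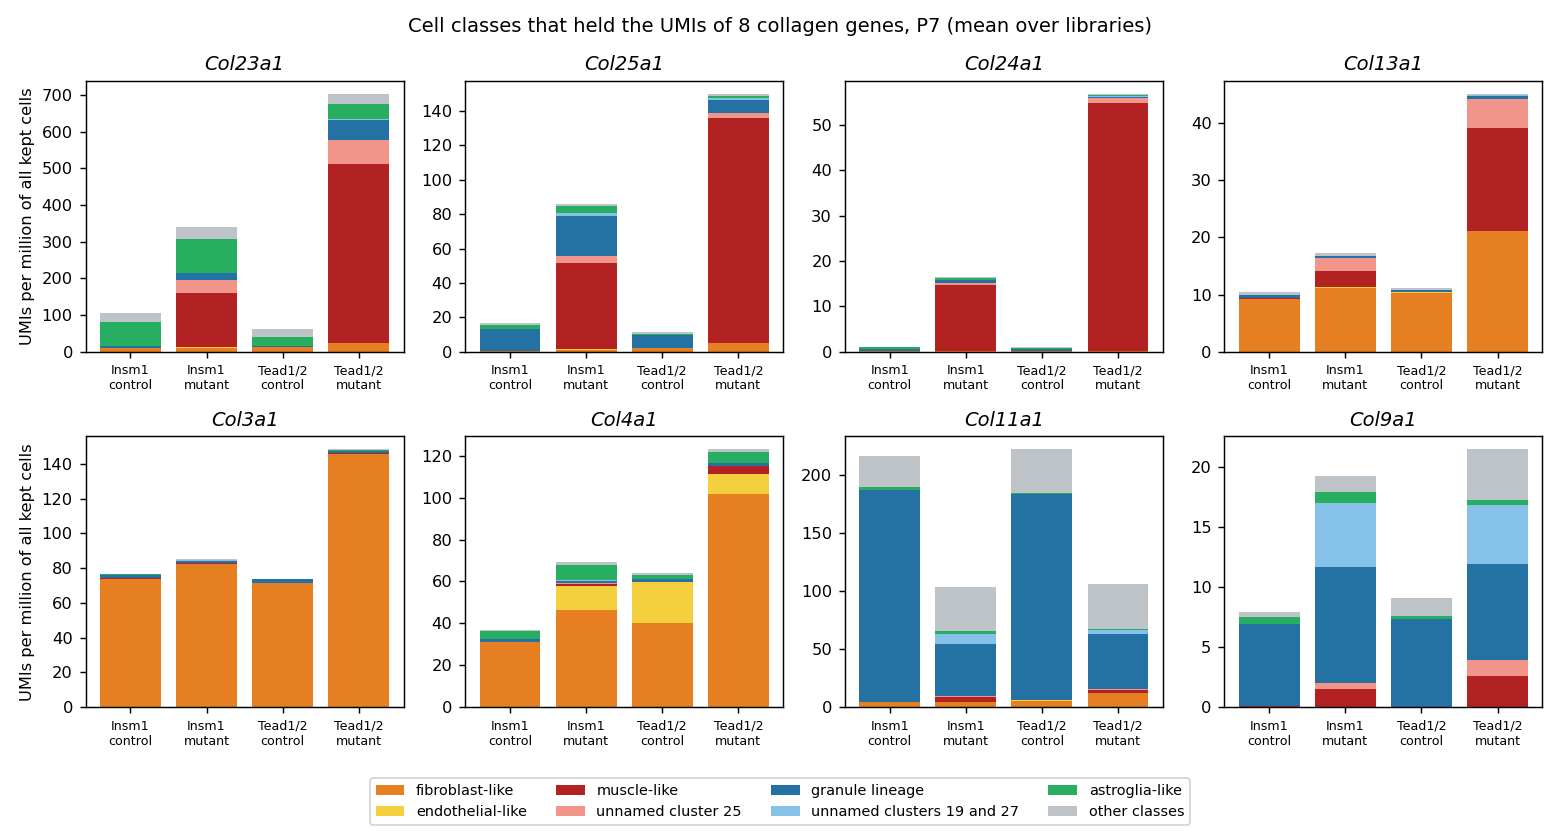
CPM of all UMIs in kept P7 cells, without TMM factors (y axis, mean over libraries), of 8 collagen genes by genotype (x axis), stacked by the cell class that held them; no error is drawn, and the values by library are in the text. In the mutants most of Col24a1 and Col25a1 is in muscle-like cells, while Col3a1 is in fibroblast-like cells in every group.

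**Figure D4:**
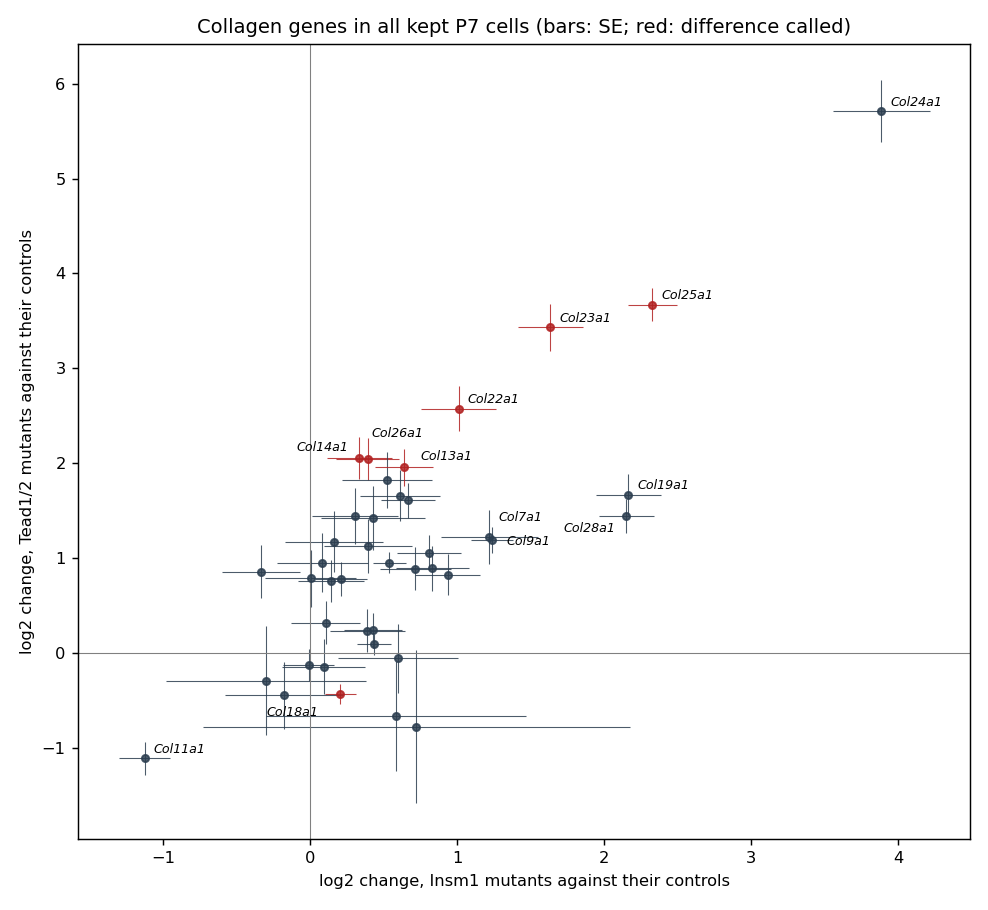
Log2 changes of collagen genes over all kept P7 cells in the Insm1 mutants (x axis) and the Tead1/2 mutants (y axis), with standard errors as bars; each point is a gene tested and labels mark those with a large Insm1 change or a called difference. Col24a1, Col25a1 and Col23a1 lie highest, and Col11a1 is low in both.

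The difference between the mutant effects was tested for all 41 members over all P7 cells: 7 were called, 6 higher in the Tead1/2 effect and 1 lower, beside 3.69% of all genes (2.32% higher). The 6 were Col13a1, Col14a1, Col22a1, Col23a1, Col25a1 and Col26a1. The lower member was Col18a1, a multiplexin from whose end the fragment endostatin is cut. Col18a1 was at 87.7 and 77.1 CPM across the Insm1 controls and 86.9, 107 and 90.8 across the Insm1 mutants. Col18a1 in the Tead1/2 libraries was at 94.2 and 91.6 in the controls and 61.8, 68.6 and 75.6 in the mutants. The Insm1 groups overlapped and all Tead1/2 mutants lay below their controls, with changes of 0.21 (SE 0.11, adjusted p = 0.177) and -0.44 (SE 0.10, adjusted p = 0.00555) and a difference of -0.64 (SE 0.15, adjusted p = 0.0414). Granule-lineage cells, which held most Col18a1 UMIs, were 76.0% and 80.5% of kept cells in the Tead1/2 controls and 39.9%, 30.1% and 32.7% in the mutants. In the Insm1 libraries they were 81.5% and 78.6% in controls and 48.4%, 41.7% and 38.3% in mutants. These shares leave out unnamed clusters 19 and 27, which had granule neuron markers raised and held almost only mutant cells. With both added, the Tead1/2 shares were 76.0% and 80.5% in controls and 50.9%, 43.4% and 43.3% in mutants. The Insm1 shares were then 81.5% and 78.6% in controls and 62.8%, 59.0% and 54.4% in mutants. The part of this cell share in the all-cell values was not tested. Within the lineage the Tead1/2 change of Col18a1, given below, was not called. With Insm1 control 2 left out the count of called members was 1, beside 1.28% of all genes, and with Tead1/2 control 2 left out it was 2, beside 1.54%. Insm1 control 2 alone, when left out, ended the difference calls of Col23a1 (1.67, adjusted p = 0.0547) and Col25a1 (1.14, adjusted p = 0.0538). Col13a1 lost its difference call without Insm1 control 1, Insm1 mutant 2, Tead1/2 control 1 or Tead1/2 control 2 (log2 changes 0.87 to 1.45, adjusted p = 0.0538 to 0.107). Col14a1 lost its difference call without Insm1 control 1, Insm1 control 2 or Tead1/2 control 2 and with doublets kept (log2 changes 0.71 to 1.77, adjusted p = 0.0504 to 0.0622). Col22a1 lost its difference call without Insm1 control 1, Insm1 control 2, Insm1 mutant 1, Insm1 mutant 2, Tead1/2 control 1, Tead1/2 control 2 or Tead1/2 mutant 3 (log2 changes 1.23 to 1.77, adjusted p = 0.0536 to 0.192). Col26a1 lost its difference call without Insm1 control 2 or Tead1/2 control 2 (log2 changes 1.43 to 1.55, adjusted p = 0.0629 to 0.0752). Col18a1 lost its difference call without Insm1 control 1, Insm1 control 2, Insm1 mutant 2, Tead1/2 control 1, Tead1/2 control 2 or Tead1/2 mutant 2 (log2 changes -0.74 to -0.55, adjusted p = 0.0626 to 0.186). Summed muscle markers over all P7 cells were 4627 to 6623 CPM in the Insm1 mutants and 15989 to 20276 in the Tead1/2 mutants, against 137 to 185 and 79.4 to 99.4 in their controls, and their part in the difference was not tested.

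Within the granule lineage, a class named from markers, 34 members could be tested. The class leaves out unnamed clusters 19 and 27, which had granule neuron markers raised and held almost only mutant cells. In the Insm1 mutants 11 were called, 10 higher and 1 lower, beside 20.8% of all genes (11.6% higher, 9.20% lower). Among the Tead1/2 mutants 15 were called, 14 higher and 1 lower, beside 19% (10.8% higher, 8.14% lower). Median log2 changes of the 34 members were 0.54 and 0.52, and 26 and 27 of them were positive, where the median over all genes was 0.00 in both comparisons. In the edgeR test at P2 with all libraries Col9a1 was called higher in the Insm1 mutants and not called in the Tead1/2 mutants. In the P7 lineage Col9a1 was at 7.67 and 10.3 CPM across the Insm1 controls and 21, 23.4 and 24.9 across the Insm1 mutants. Col9a1 in the Tead1/2 lineage was at 9.75 and 9.71 in the controls and 19.5, 30.4 and 27.4 in the mutants. All mutant libraries lay above all controls. The changes of Col9a1 in the lineage were 1.37 (SE 0.19, adjusted p = 0.000242) and 1.40 (SE 0.18, adjusted p = 0.000152). Over all P7 cells Col9a1 was at 7.07 and 9.39 CPM in the Insm1 controls, against 19.3, 19.2 and 19 in the mutants, a change of 1.23 (SE 0.14, adjusted p = 8.54e-05). The Tead1/2 controls were at 9.09 and 9.2 over all cells, against 17.9, 23.8 and 20.7 in the mutants, a change of 1.19 (SE 0.14, adjusted p = 4.24e-05). No overlap was seen there either, and the difference between alleles was -0.05 (SE 0.19, adjusted p = 0.941).

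The rise of Col9a1 was not even across granule-lineage clusters. Clusters were divided after the data were seen into those with at least 20% of cells from controls, called shared, and clusters 6, 14, 20 and 28, which were mostly mutant cells. As CPM of the UMIs in those clusters, without TMM factors, Col9a1 in the shared clusters was at 7.39 and 9.93 in the Insm1 controls and 9.74, 11.5 and 9.44 in the Insm1 mutants. The Tead1/2 values in shared clusters were 9.61 and 9.36 in controls and 8.75, 11.2 and 9.4 in mutants, so mutants and controls overlapped. In the mostly mutant clusters Col9a1 was at 28.4, 26 and 28.3 in the Insm1 mutants and 35, 40.7 and 44.3 in the Tead1/2 mutants. Those clusters held 17 to 40 cells in each control library and 765 to 1462 in each mutant library. Because the clusters come from the same cells, no test was made between them.

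**Figure D5:**
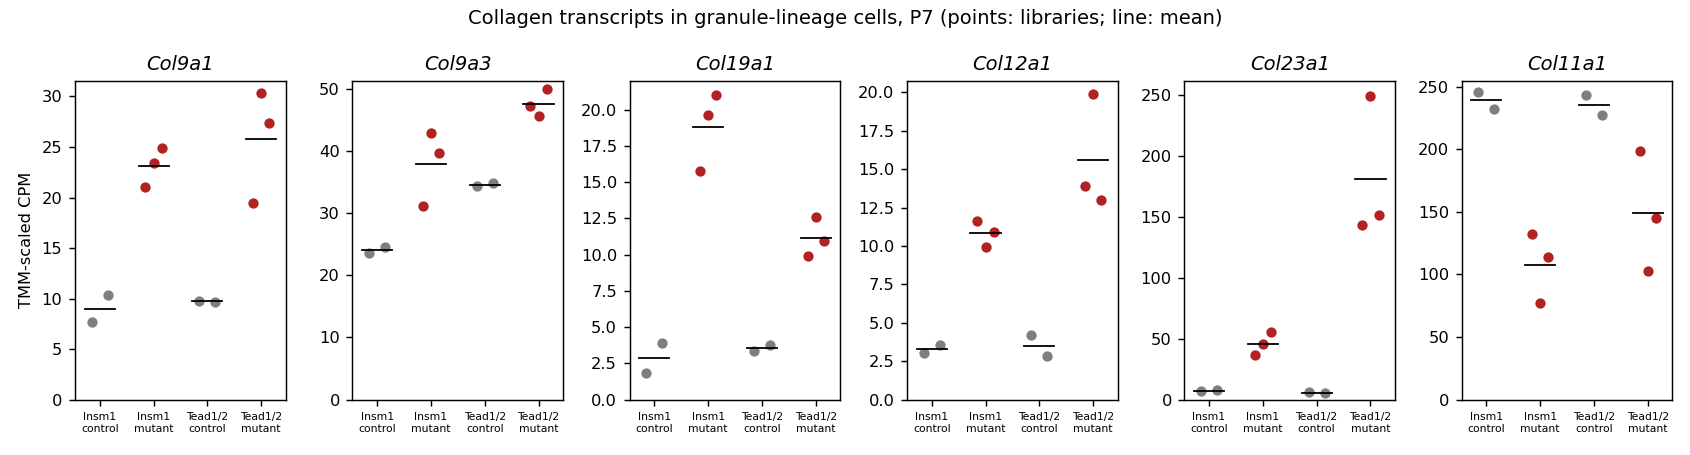
TMM-scaled CPM (y axis) of 6 collagen genes in granule-lineage cells at P7 by genotype (x axis); points are libraries and lines are means. For Col9a1 the 6 mutant libraries lie between 19.5 and 30.4 CPM, above the 4 controls, and for Col11a1 the mutants lie below the controls.

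Col9a3 also rose in the granule lineage of both mutants, where Col9a2 was not called. Col9a3 was at 23.5 and 24.5 CPM across the Insm1 controls and 31.1, 42.8 and 39.6 across the Insm1 mutants. Col9a3 in the Tead1/2 lineage was at 34.3 and 34.9 in the controls and 47.3, 45.6 and 49.9 in the mutants. Every mutant lay above its controls, with changes of 0.65 (SE 0.12, adjusted p = 0.00171) and 0.46 (SE 0.11, adjusted p = 0.0121). In shared clusters the Tead1/2 mutants lay above their controls as well, at 42.1, 45.6 and 49 against 33.7 and 33.4 in the controls. In the Insm1 shared clusters Col9a3 was at 26, 41.9 and 31.5 in the mutants, against 22.5 and 23.6 in the controls, also above them. Col9a3 lost its Tead1/2 call without Tead1/2 control 1 or Tead1/2 control 2 (log2 changes 0.45 to 0.47, adjusted p = 0.0828 to 0.103). Col11a1, the most abundant member in the lineage though higher in GABAergic interneurons (314 class CPM) and the oligodendrocyte lineage (242), was at 246 and 232 CPM across the Insm1 controls and 132, 77.2 and 114 across the Insm1 mutants. Col11a1 in the Tead1/2 lineage was at 244 and 227 in the controls and 198, 102 and 145 in the mutants. For Col11a1 every mutant lay below its controls. The log2 changes in the lineage were -1.15 (SE 0.23, adjusted p = 0.00348) and -0.66 (SE 0.23, adjusted p = 0.0657), and over all cells -1.13 (SE 0.17, adjusted p = 0.000643) and -1.11 (SE 0.17, adjusted p = 0.000336). Over all cells the Insm1 controls had 235 and 216 CPM of Col11a1, against 121, 86 and 103 in the mutants. The Tead1/2 controls had 224 and 223, against 126, 77 and 107 in the mutants, so the groups did not overlap. Granule-lineage cells were a smaller share of kept cells in both mutants, as given with Col18a1, and the part of that share in these all-cell values was not tested. In shared clusters Col11a1 was at 237 and 224 in the Insm1 controls, 205, 151 and 246 in the Insm1 mutants, 239.8 and 224 in the Tead1/2 controls and 302, 234 and 256 in the Tead1/2 mutants. In mostly mutant clusters it was at 75.5, 60.9 and 93.4 in the Insm1 mutants and 68.7, 49.3 and 67.3 in the Tead1/2 mutants.

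The FACIT members Col19a1 and Col12a1 and the unclassed Col28a1 also rose in the granule lineage. Col19a1, a FACIT-like collagen made by some neurons, was at 1.87 and 3.9 CPM across the Insm1 controls and 15.8, 19.6 and 21 across the Insm1 mutants. Col19a1 in the Tead1/2 lineage was at 3.32 and 3.75 in the controls and 9.93, 12.6 and 10.9 in the mutants. Changes were 2.77 (SE 0.25, adjusted p = 1.01e-05) and 1.66 (SE 0.24, adjusted p = 0.000316), with all mutants above all controls. In granule-neuron-like cells Col19a1 was at 2.28 and 7.1 class CPM in the Insm1 controls and 37.8, 63.7 and 78.5 in the Insm1 mutants. Col12a1, a FACIT collagen of tendon and muscle connective tissue, was at 3 and 3.57 CPM across the Insm1 controls and 11.6, 9.95 and 10.9 across the Insm1 mutants. Col12a1 in the Tead1/2 lineage was at 4.22 and 2.81 in the controls and 13.9, 19.9 and 13 in the mutants. Its changes were 1.73 (SE 0.23, adjusted p = 0.000201) and 2.12 (SE 0.22, adjusted p = 2.49e-05), without overlap. Col28a1, a collagen known from peripheral nerve, was at 1.71 and 1.72 CPM across the Insm1 controls and 11.5, 18.5 and 12.3 across the Insm1 mutants. Col28a1 in the Tead1/2 lineage was at 2.42 and 1.43 in the controls and 7.39, 8.13 and 6.95 in the mutants. Col28a1 changed by 3.04 (SE 0.27, adjusted p = 7.63e-06) and 1.92 (SE 0.26, adjusted p = 0.000209), again without overlap.

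Col23a1 and Col25a1, which had most of their UMIs in muscle-like cells, also rose inside the lineage. Col23a1 was at 6.94 and 7.74 CPM across the Insm1 controls and 36.4, 46 and 55.4 across the Insm1 mutants. Col23a1 in the Tead1/2 lineage was at 5.86 and 5.46 in the controls and 143, 249 and 151 in the mutants. The log2 changes were 2.64 (SE 0.26, adjusted p = 2.16e-05) and 5.0 (SE 0.28, adjusted p = 4.08e-07), with no overlap. Col25a1 was at 14.9 and 17.7 CPM across the Insm1 controls and 39.1, 69.3 and 58.9 across the Insm1 mutants. Col25a1 in the Tead1/2 lineage was at 11.7 and 8.16 in the controls and 29.4, 26.6 and 19.9 in the mutants. Col25a1 changed by 1.78 (SE 0.24, adjusted p = 0.000208) and 1.34 (SE 0.25, adjusted p = 0.00200), also with no overlap. In the mostly mutant clusters Col23a1 was at 326, 367 and 276 in the Tead1/2 mutants, and in shared clusters at 13.9, 19.1 and 14, against 5.77 and 5.31 in the controls, so it was higher in both kinds of cluster. The Insm1 values of Col23a1 were 54.6, 54.4 and 64.3 in mostly mutant clusters and 9.18, 7.83 and 13.6 in shared clusters, against 6.69 and 7.5 in the controls. Muscle markers inside the lineage summed to 77.6 to 79.1 and 79.5 to 97.9 CPM in the Insm1 and Tead1/2 controls, and to 196 to 256 and 331 to 866 in the mutants; their part in these levels was not tested. 

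Other called members of the lineage belong to basement membranes. Col18a1 was at 93.5 and 89.2 CPM across the Insm1 controls and 135, 204 and 173 across the Insm1 mutants. Col18a1 in the Tead1/2 lineage was at 108 and 104 in the controls and 103, 126 and 108 in the mutants. In the lineage Col18a1 changed by 0.90 (SE 0.14, adjusted p = 0.000638) in the Insm1 mutants, which lay above their controls, and by 0.08 (SE 0.14, adjusted p = 0.765) in the Tead1/2 mutants, which overlapped theirs. Col4a5, a chain of an alternative type IV trimer, was at 21.6 and 24.6 CPM across the Insm1 controls and 31.7, 29.3 and 37 across the Insm1 mutants. Col4a5 in the Tead1/2 lineage was at 21.9 and 19.3 in the controls and 32.9, 37.8 and 31.2 in the mutants. Col4a5 changed by 0.50 (SE 0.12, adjusted p = 0.0133) and 0.72 (SE 0.12, adjusted p = 0.00119), with no overlap. Col4a5 lost its Insm1 call without Insm1 control 1, with the unnamed granule clusters added, with doublets kept and with only the highest 5% of doublet scores removed (log2 changes 0.11 to 0.40, adjusted p = 0.142 to 0.607).

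The remaining called members of the granule lineage are given more briefly. Col6a1, a beaded filament chain, was at 0.406 and 0.132 CPM across the Insm1 controls and 0.876, 0.836 and 0.768 across the Insm1 mutants. Col6a1 in the Tead1/2 lineage was at 0.656 and 0.496 in the controls and 2.23, 1.92 and 1.42 in the mutants. Changes of Col6a1 were 1.47 (SE 0.47, adjusted p = 0.0446) and 1.65 (SE 0.35, adjusted p = 0.00493), with no overlap, and without Insm1 control 1 the Insm1 change was 2.58 (SE 0.70, adjusted p = 0.0355). Fibroblast-like cells held 93.4% of Col6a1 UMIs over all classes, and inside the Insm1 lineage fibroblast markers summed to 104 to 106 CPM in the controls and 135 to 168 in the mutants, with Igf2, Igfbp2 and Bgn called higher of 7 tested; their part in the Col6a1 change was not tested. Col6a1 lost its Insm1 call without Insm1 control 2, Insm1 mutant 1, Insm1 mutant 2, Insm1 mutant 3, Tead1/2 control 1, Tead1/2 control 2 or Tead1/2 mutant 2, under DESeq2, with doublets kept and with only the highest 5% of doublet scores removed (log2 changes 0.91 to 1.52, adjusted p = 0.0505 to 0.224). Col6a1 lost its Tead1/2 call without Tead1/2 control 2 (log2 change 1.48, adjusted p = 0.0604). A further 6 members were called in the Tead1/2 mutants and not in the Insm1 mutants, and the difference between alleles was not tested within the lineage. Col2a1, the cartilage fibril collagen, was at 0.779 and 0.937 CPM in the controls, against 3.77, 3.85 and 6.31 in the mutants (log2 change 2.44, SE 0.34, adjusted p = 0.000235). Col4a6, which pairs with Col4a5 in a trimer, was at 6.43 and 4.8 in controls and 13.8, 12.2 and 11.6 in mutants (log2 change 1.14, SE 0.15, adjusted p = 0.000205). Col4a1 was at 1.68 and 1.54 against 3.46, 3.99 and 5.11 (log2 change 1.37, SE 0.27, adjusted p = 0.00297). Col15a1 was at 0.779 and 0.551 against 1.31, 1.63 and 3.33 (log2 change 1.63, SE 0.41, adjusted p = 0.0145). Col20a1, a FACIT collagen, was at 2.17 and 2.04 against 3.7, 3.7 and 3.12 (log2 change 0.73, SE 0.22, adjusted p = 0.0372). Mutants lay above controls for these 5 members. Fibroblast-like cells held 77.0% of Col4a1 UMIs, 88.8% of Col15a1 and 80.1% of Col4a6, and fibroblast markers inside the lineage summed to 121 to 131 CPM in the Tead1/2 controls and 149.6 to 184 in the mutants. The part of fibroblast RNA in these low levels was not tested. Col3a1, the highest fibroblast-like member, was at 2.87 and 1.93 in the lineage of the controls and 1, 2.37 and 6.03 in that of the mutants, with overlap (log2 change 0.38, SE 0.53, adjusted p = 0.695). In the Insm1 lineage Col2a1 was at 1.14 and 0.728 against 1.04, 0.836 and 1.69, Col4a6 at 5.4 and 5.16 against 5.58, 6.19 and 6.91 and Col4a1 at 1.83 and 2.32 against 2.39, 4.1 and 3.84. Col15a1 was at 0.609 and 0.463 against 0.558, 0.836 and 0.768 there, and Col20a1 at 3.37 and 3.38 against 4.54, 4.51 and 2.76. None of the 5 was called in the Insm1 lineage, with log2 changes of 0.20, 0.21, 0.73, 0.37 and 0.27 in the order given. Col5a2, a type V chain that joins type I fibrils, fell, from 18.7 and 16.8 to 8.93, 6.29 and 7.16 CPM (log2 change -1.25, SE 0.15, adjusted p = 8.65e-05), and lay below its controls in shared clusters too, at 8.2, 6.45 and 8.08 against 18.2 and 16.3. In the Insm1 lineage Col5a2 was at 20.2 and 21.3 against 21, 26.6 and 27.2 (log2 change 0.26, SE 0.14, adjusted p = 0.245). Col15a1 lost its Tead1/2 call without Tead1/2 control 1 or Tead1/2 control 2 (log2 changes 1.42 to 1.91, adjusted p = 0.0656 to 0.122). Col20a1 lost its Tead1/2 call without Insm1 control 1, Insm1 control 2, Tead1/2 control 1, Tead1/2 control 2, Tead1/2 mutant 1 or Tead1/2 mutant 2 and under DESeq2 (log2 changes 0.68 to 0.77, adjusted p = 0.0575 to 0.186).

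The fibrillar and beaded filament genes Col1a1, Col1a2, Col3a1, Col5a1, Col5a3, Col6a1, Col6a2 and Col6a6 rose over all cells of the Tead1/2 mutants and were not called in the Insm1 mutants. For the difference between alleles no fibrillar or beaded filament member was called. Col1a1, the major chain of type I fibrils, was at 25.7 and 17.1 CPM across the Insm1 controls and 39.8, 20.9 and 38.5 across the Insm1 mutants. Col1a1 in the Tead1/2 libraries was at 25.9 and 24.2 in the controls and 63.7, 77.8 and 95.8 in the mutants. The Insm1 groups overlapped (log2 change 0.61, SE 0.27, adjusted p = 0.117) and the Tead1/2 mutants all lay above their controls (log2 change 1.66, SE 0.27, adjusted p = 0.000496). Col1a2 was at 40.7 and 42.7 CPM across the Insm1 controls and 60.9, 33.6 and 60.4 across the Insm1 mutants. Col1a2 in the Tead1/2 libraries was at 44.6 and 34.1 in the controls and 74.4, 99.9 and 148 in the mutants. Changes of Col1a2, the partner chain, were 0.30 (SE 0.29, adjusted p = 0.482) and 1.44 (SE 0.30, adjusted p = 0.00228), with overlap in the Insm1 comparison. Col3a1, the type III collagen of soft tissues, was at 81.8 and 78.7 CPM across the Insm1 controls and 91.6, 54.9 and 109 across the Insm1 mutants. Col3a1 in the Tead1/2 libraries was at 81.1 and 67.4 in the controls and 95.1, 129 and 207 in the mutants. Col3a1 changed by 0.08 (SE 0.31, adjusted p = 0.877) and 0.95 (SE 0.31, adjusted p = 0.0284), with overlap in the Insm1 comparison only. Col3a1 lost its Tead1/2 call without Tead1/2 control 1, Tead1/2 control 2 or Tead1/2 mutant 3 and with only the highest 5% of doublet scores removed (log2 changes 0.60 to 1.09, adjusted p = 0.0543 to 0.162). Fibroblast-like cells held 98.8%, 98.2% and 99.4% of the Tead1/2 differences of Col1a1, Col1a2 and Col3a1. Marker genes of fibroblasts, a list with no collagen, summed to 252 to 304 CPM in the Tead1/2 controls and 1896 to 2351 in the mutants, with 11 of 16 called higher and 1 lower. In the Insm1 libraries they summed to 254 to 288 in the controls and 817 to 1014 in the mutants, where Igf2 and Igfbp2 were the 2 called and the median log2 change was 0.00. In Tead1/2 mutant 1 the share of kept cells that were fibroblast-like was 1.85%, against 1.44% and 0.876% in its controls. A few abundant genes can carry such sums, so they do not measure that share in either comparison. The part of fibroblast-like cells was not tested.

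Type V chains regulate the width of type I fibrils. Col5a1 was at 10.4 and 10.7 CPM over all cells of the Tead1/2 controls and at 12, 17.7 and 27.6 in their mutants. Col5a3, also a type V chain, was at 0.870 and 0.567 against 1.4, 1.49 and 1.93. Both lay above their controls in every mutant. The type VI chain Col6a1 was at 7.32 and 5.1 in the controls, against 11.3, 15.1 and 23.9 in the mutants. Its partner Col6a2 was at 7.17 and 4.66 against 9.65, 11.1 and 19.6. Col6a6, a less common type VI chain, was at 0.930 and 0.654 against 2.69, 3.56 and 2.33, and no mutant overlapped a control for these type VI genes. The log2 changes of Col5a1, Col5a3, Col6a1, Col6a2 and Col6a6 were 0.86, 1.13, 1.42, 1.17 and 1.82 in that order, all called. Without Tead1/2 mutant 3 the Col5a1 change was 0.50 (SE 0.18, adjusted p = 0.0494). None of the 5 was called in the Insm1 mutants: Col5a1 was at 31.9 and 24.1 in the Insm1 controls, against 23.8, 22.3 and 20.6 in the mutants (log2 change -0.34, SE 0.26, adjusted p = 0.380). Col5a3 was at 0.991 and 0.826 against 0.939, 1.27 and 1.46 in the Insm1 libraries, Col6a1 at 6.37 and 5.11 against 9.73, 4.98 and 8.76 and Col6a2 at 6.34 and 5.73 against 7.13, 4.87 and 8.53. Col6a6 was at 0.958 and 1.39 in the Insm1 controls, against 1.46, 1.45 and 2.13 in the mutants. None of the 5 was called for the difference between alleles. Fibroblast-like cells held 47.6% of Col5a1 UMIs, 28.5% of Col5a3 and 18.2% of Col6a6. Of the Tead1/2 differences they held 113% for Col5a1, 40.6% for Col5a3, 95.3% for Col6a1 and 100.3% for Col6a2, while muscle-like cells held 65.1% for Col6a6. A share over 100% means that the level summed over the other classes was lower in the mutants. Col5a1 lost its Tead1/2 call without Tead1/2 control 1 or Tead1/2 control 2, with doublets kept and with only the highest 5% of doublet scores removed (log2 changes 0.51 to 0.87, adjusted p = 0.0551 to 0.116). Tead1/2 control 2 alone, when left out, ended the Tead1/2 calls of Col5a3 (0.88, adjusted p = 0.0741), Col6a1 (1.20, adjusted p = 0.0581) and Col6a2 (0.91, adjusted p = 0.105).

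Inside fibroblast-like cells 27 members could be tested and 1 was called. Their median change was 0.11 in the Insm1 mutants and -0.14 in the Tead1/2 mutants, given without the median over all genes of these cells. In the Insm1 mutants 0 of 27 were called, beside 0.0130% of 7714 genes, while an alternative that kept doublets called 11, beside 16.3% of 15958 genes. Among Tead1/2 mutants 1 was called, beside 0.583%. Col3a1 was at 5392 and 4852 CPM across the Insm1 controls and 4859, 4789 and 5832 across the Insm1 mutants. Col3a1 in Tead1/2 fibroblast-like cells was at 4773 and 5997 in controls and 4505, 3851 and 3725 in mutants. Col3a1 overlapped between the Insm1 groups (log2 change 0.01, SE 0.14, adjusted p = 0.998), and the Tead1/2 mutants lay below both controls without being called (log2 change -0.42, SE 0.14, adjusted p = 0.233). Col15a1, the called member, was at 1444 and 1313 CPM across the Insm1 controls and 1181, 1454 and 1330.2 across the Insm1 mutants. Col15a1 in Tead1/2 fibroblast-like cells was at 2050.4 and 2003 in controls and 1324, 889 and 797 in mutants. The Tead1/2 mutants lay below their controls, with a change of -1.02 (SE 0.17, adjusted p = 0.0137). Col15a1 lost its Tead1/2 call without Tead1/2 control 1, Tead1/2 control 2 or Tead1/2 mutant 2, with doublets kept and with only the highest 5% of doublet scores removed (log2 changes -1.03 to -0.07, adjusted p = 0.0622 to 0.908).

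Basement membrane members were also called over all cells. Col4a1, the basement membrane chain, was at 40.8 and 36.5 CPM across the Insm1 controls and 72.5, 55.4 and 79 across the Insm1 mutants. Col4a1 in the Tead1/2 libraries was at 72.9 and 55.5 in the controls and 78.8, 126 and 152 in the mutants. Changes were 0.83 (SE 0.25, adjusted p = 0.0262) and 0.89 (SE 0.24, adjusted p = 0.0108), with all mutants above controls. Col4a2, its partner chain, was at 31.7 and 29.6 CPM across the Insm1 controls and 55.7, 51.1 and 69.6 across the Insm1 mutants. Col4a2 in the Tead1/2 libraries was at 61.5 and 47.2 in the controls and 68.9, 97.1 and 123 in the mutants. Changes of Col4a2 were 0.94 (SE 0.22, adjusted p = 0.00834) and 0.82 (SE 0.21, adjusted p = 0.00853). For Col4a1, 48.5% of the Insm1 difference lay in fibroblast-like and 35.9% in endothelial cells; for Tead1/2, 104% lay in fibroblast-like cells. For Col4a2 these shares were 30.6% and 40.2%, and 95.5% for Tead1/2. As no mural class was named in the kept cells, any part of mural cells in these differences is not shown. Endothelial cells numbered 0 and 0 in the Insm1 controls, 51, 40 and 31 in the Insm1 mutants, 59 and 43 in the Tead1/2 controls and 3, 89 and 64 in the Tead1/2 mutants, and the part of these cells was not tested. With doublets kept the endothelial cells numbered 138 and 148 in the Insm1 controls and 125, 116 and 117 in the Insm1 mutants, and with the highest 5% of doublet scores removed 114 and 126 against 96, 88 and 96. The 0 cells in the Insm1 controls, and with them the endothelial shares of the Insm1 differences, therefore depend on the doublet treatment. Over all P7 cells 9 of the 10 endothelial markers were called higher in the Insm1 mutants, with a median log2 change of 2.97 and sums of 17.9 to 19 CPM in the controls and 108 to 193 in the mutants, and 0 of 10 in the Tead1/2 mutants. Col4a5 and Col4a6 were called in the Tead1/2 mutants, with no overlap. Col4a5 was at 51.6 and 38.7 CPM in the controls, against 60.2, 76.1 and 96.4 in the mutants (log2 change 0.78, SE 0.18, adjusted p = 0.00433). Col4a6 was at 35.6 and 23.3 against 39.5, 46.5 and 64.2 (log2 change 0.76, SE 0.22, adjusted p = 0.0159). Fibroblast-like cells held 74% and 90.1% of these differences. In the Insm1 libraries Col4a5 was at 47 and 47.4 against 55.9, 48.6 and 59.5 (log2 change 0.21, SE 0.18, adjusted p = 0.422). Col4a6 was at 28.6 and 26 against 32.3, 24.5 and 33.8 there, with overlap (log2 change 0.14, SE 0.22, adjusted p = 0.690). Col4a1 lost its Insm1 call without Insm1 control 1, Insm1 control 2, Insm1 mutant 1 or Insm1 mutant 3 (log2 changes 0.73 to 0.91, adjusted p = 0.0595 to 0.152). Col4a2 lost its Insm1 call without Insm1 control 1 or Insm1 control 2 (log2 changes 0.89 to 0.99, adjusted p = 0.0520 to 0.0673). Tead1/2 control 2 alone, when left out, ended the Tead1/2 calls of Col4a1 (0.71, adjusted p = 0.105), Col4a2 (0.65, adjusted p = 0.0921), Col4a5 (0.59, adjusted p = 0.0592) and Col4a6 (0.49, adjusted p = 0.162).

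Col19a1 was at 2.91 and 5.52 CPM across the Insm1 controls and 17, 19.6 and 18.5 across the Insm1 mutants. Col19a1 in the Tead1/2 libraries was at 4.08 and 3.18 in the controls and 11.3, 12.9 and 10.7 in the mutants. Over all cells Col19a1 changed by 2.17 (SE 0.22, adjusted p = 3.23e-05) and 1.66 (SE 0.22, adjusted p = 9.55e-05), with no overlap. Col28a1 was at 2.01 and 2.37 CPM across the Insm1 controls and 9.99, 11 and 7.86 across the Insm1 mutants. Col28a1 in the Tead1/2 libraries was at 2.58 and 2.14 in the controls and 6.69, 6.93 and 5.76 in the mutants. Its changes were 2.15 (SE 0.19, adjusted p = 1.02e-05) and 1.44 (SE 0.18, adjusted p = 7.36e-05). Col12a1 was at 18.2 and 19.97 CPM across the Insm1 controls and 30.04, 25.1 and 27.8 across the Insm1 mutants. Col12a1 in the Tead1/2 libraries was at 22.9 and 19.8 in the controls and 39.2, 39 and 45.7 in the mutants. Col12a1 changed by 0.54 (SE 0.11, adjusted p = 0.00430) and 0.95 (SE 0.11, adjusted p = 4.15e-05). Col20a1 was at 3.5 and 3.1 CPM across the Insm1 controls and 5.82, 5.51 and 4.32 across the Insm1 mutants. Col20a1 in the Tead1/2 libraries was at 2.19 and 2.05 in the controls and 7.66, 5.85 and 5.99 in the mutants. Col20a1 changed by 0.66 (SE 0.18, adjusted p = 0.0184) and 1.61 (SE 0.19, adjusted p = 4.02e-05). Mutants lay above controls for all 4 genes in both comparisons. Of the differences, the granule lineage held 39.2% for Col19a1 (Insm1), unnamed cluster 27 held 54.1% for Col19a1 (Tead1/2), fibroblast-like cells 59.4% for Col12a1 (Tead1/2), and muscle-like cells 64.4% and 57.6% for Col20a1. Col12a1 lost its Insm1 call without Insm1 control 1 (log2 change 0.47, adjusted p = 0.0540). Col20a1 lost its Insm1 call without Insm1 control 1, Insm1 control 2, Insm1 mutant 1 or Insm1 mutant 2 (log2 changes 0.58 to 0.76, adjusted p = 0.0555 to 0.116).

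Col11a2, the partner chain of Col11a1, was at 1.39 and 1.29 CPM across the Insm1 controls and 2.14, 2.3 and 2.7 across the Insm1 mutants. Col11a2 in the Tead1/2 libraries was at 1.98 and 2.7 in the controls and 5.02, 4.26 and 5.18 in the mutants. Changes were 0.81 (SE 0.22, adjusted p = 0.0159) and 1.06 (SE 0.19, adjusted p = 0.000824). Col7a1, the anchoring fibril collagen of skin, was at 1.62 and 0.619 CPM across the Insm1 controls and 2.89, 2.26 and 3.2 across the Insm1 mutants. Col7a1 in the Tead1/2 libraries was at 1.92 and 3.01 in the controls and 5.8, 5.41 and 5.76 in the mutants. Col7a1 changed by 1.22 (SE 0.33, adjusted p = 0.0175) and 1.22 (SE 0.28, adjusted p = 0.00449), and without Insm1 control 1 the Insm1 change was 2.15 (SE 0.39, adjusted p = 0.00473). Col16a1, a FACIT collagen of fibrils and basement membranes, was at 4.13 and 4.23 CPM across the Insm1 controls and 7.17, 5.4 and 8.14 across the Insm1 mutants. Col16a1 in the Tead1/2 libraries was at 5.88 and 4.71 in the controls and 7.55, 9.37 and 12.6 in the mutants. Col16a1 changed by 0.71 (SE 0.24, adjusted p = 0.0456) and 0.89 (SE 0.22, adjusted p = 0.00764). Mutants lay above controls for all 3 in both comparisons. Of the Col7a1 differences, fibroblast-like cells held 34.6% and 38.3% and muscle-like cells 25.2% and 39.6%. Col11a2 lost its Insm1 call without Insm1 control 1 or Insm1 control 2 (log2 changes 0.76 to 0.87, adjusted p = 0.0747 to 0.0817). Col7a1 lost its Insm1 call without Insm1 control 2 (log2 change 0.77, adjusted p = 0.106). Col16a1 lost its Insm1 call without Insm1 control 1, Insm1 control 2, Insm1 mutant 1, Insm1 mutant 3, Tead1/2 control 1, Tead1/2 control 2 or Tead1/2 mutant 2 and with the replicate block (log2 changes 0.60 to 0.73, adjusted p = 0.0509 to 0.187). Col7a1 lost its Tead1/2 call without Tead1/2 control 1 (log2 change 0.91, adjusted p = 0.0639). Col16a1 lost its Tead1/2 call without Tead1/2 control 2 (log2 change 0.74, adjusted p = 0.0743). Col9a3 rose over all cells in the Insm1 mutants (log2 change 0.43, SE 0.11, adjusted p = 0.0150), from 24.8 and 24.6 CPM in the controls to 28.4, 36.4 and 35.2, and was not called in the Tead1/2 mutants (log2 change 0.09, SE 0.11, adjusted p = 0.558), at 31.1 and 31.9 against 36.7, 30.5 and 33.3. Col9a3 lost its Insm1 call without Insm1 control 1, Insm1 control 2 or Insm1 mutant 2 (log2 changes 0.37 to 0.44, adjusted p = 0.0548 to 0.0801). Col9a2 was at 1.88 and 2.12 CPM across the Insm1 controls and 2.07, 2.72 and 3.09 across the Insm1 mutants. Col9a2 in the Tead1/2 libraries was at 2.88 and 3.92 in the controls and 3.41, 3.54 and 4.91 in the mutants. It was called in neither, with changes of 0.39 (SE 0.26, adjusted p = 0.294) and 0.23 (SE 0.23, adjusted p = 0.433). Of the 44 members, 33 were called in at least 1 comparison, beside 42.5% of all genes tested in at least 1, and 11 in none: Col10a1, Col17a1, Col27a1, Col4a3, Col4a4, Col6a3, Col6a4, Col6a5, Col8a1, Col8a2 and Col9a2.

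Genes that fold, modify, cleave and bind collagens were counted in 4 lists, with log2 changes in parentheses. Their counts stand beside 16.1% of all genes higher and 13.2% lower in the Insm1 mutants over all P7 cells, and 25% and 20.2% in the Tead1/2 mutants. Over all P7 cells of the Insm1 mutants, of 20 chaperones and modifying enzymes tested 4 rose and 0 fell, among them Tmem38b (0.94), P4ha2 (1.98) and Colgalt2 (1.54). The Tead1/2 mutants had 7 that rose and 1 that fell, among them Tmem38b (1.90), P4ha2 (3.70) and P3h2 (0.69). P4ha2, a prolyl hydroxylase subunit, and Tmem38b, an intracellular cation channel, were called for the difference between alleles, by 1.72 (adjusted p = 0.0470) and 0.96 (adjusted p = 0.0064). For that difference 3.69% of all genes were called, 2.32% higher in the Tead1/2 effect. Of 13 processing enzymes tested 3 rose and 1 fell in the Insm1 mutants, with the procollagen proteinases Adamts14 (1.74) and Adamts2 (0.60) higher and the enhancer Pcolce2 (-1.03) lower, and 8 rose in the Tead1/2 mutants, with Adamts14 at 2.19. Of 9 receptors tested 3 rose in the Insm1 mutants and 4 in the Tead1/2 mutants, among them the collagen receptors Itga1 (1.62) and Mrc2 (0.99) respectively. Of 7 proteases and inhibitors tested 1 rose in the Insm1 mutants, Timp2 at 1.5, and 2 rose and 1 fell in the Tead1/2 mutants, Timp2 at 1.42, Mmp2 at 0.85 and Timp3 at -0.57. Within the granule lineage 1 of 19 chaperones tested rose and 1 fell in each deletion. Of 9 processing enzymes 3 and 4 rose and 1 and 1 fell, of 8 receptors 1 and 1 rose and 1 and 0 fell, and of 5 proteases 1 rose and 1 fell in each, beside 11.6% and 10.8% of all genes higher and 9.20% and 8.14% lower. There Adamts14 rose by 2.13 and 2.28 and Timp2 by 1.98 and 2.43. At P2 none of the genes of the 4 lists passed in the Insm1 comparison or in the Tead1/2 comparison with all libraries; without Tead1/2 mutant 4 Adamts14 was called at 0.75 (adjusted p = 0.00209).

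Of the 44 members, 35 matched at least 1 start in the RefSeq promoter table, giving 38 windows of 250 bases. GGAATG was in 4 of 38 (10.5%), those of Col18a1, Col20a1, Col3a1 and Col6a2, against 12.6% of 32851 windows of all genes. CANNTG was in 19 of 38 (50%) against 66.2%, and CAGCTG, a form of CANNTG whose matches are among the 19, in 6 of 38 (15.8%) against 13%. Both strands were searched. The Col24a1 window holds 1 CAGCTG. A match gives only the presence of these letters in a window.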

How the data were processed

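Bulk RNA at P2 was total RNA sequenced with a stranded kit, per the labels' protocols, and gene tables hold expected counts from RSEM, deposited by the authors; the submitters' processing notes name Trim Galore 0.6.3, STAR 2.7.9a and RSEM 1.3.3. Between 6.85% and 8.79% of the deposited expected counts per library were not whole and all were rounded; 92 spike-in rows were left out. The P7 matrices hold whole UMI counts per gene and barcode (Parse Evercode), as the authors deposited them, and the genome build of their counting is not given in the sources used here. Each of the 2 bulk tables is named for the allele that its columns do not hold; columns were matched to samples through the sample descriptions and titles, not the table names.

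Cells needed 1000 UMIs, 500 genes and under 15% mitochondrial UMIs. Scrublet found no usable threshold in 3 of the 10 libraries, so a common score threshold of 0.0408 was used, which removed a high share. Clusters came from Leiden on 30 components of 2000 variable genes without collagens (scanpy 1.11.5), and were named from marker lists. UMIs were summed per library and class. All tests were edgeR 4.0.16 quasi-likelihood tests (R 4.3.3, TMM, low-count filter, Benjamini-Hochberg over all genes tested), each P2 allele alone and all P7 libraries in 1 fit of 4 groups. Values in every library were printed for members in the comparisons that called them, for the type IX chains and for the largest member of the muscle-like, granule-lineage and fibroblast-like classes. Self-tests on simulated counts called 42.1% to 77.1% of genes changed 2-fold and 85.7% to 99.0% of those changed 4-fold, depending on the comparison, and 4.91% to 11.0% of the calls were false (11.0% for the Tead1/2 P2 comparison). All simulated libraries of a group shared 1 mean per gene, so none stood apart as the library labelled Tead1/2 mutant 4 does. These shares therefore do not describe the Tead1/2 P2 comparison with all libraries. The members and lists were chosen with earlier results of these data known. Chromatin samples were not analysed here. The P2 replicate numbers did not pair the libraries. The labels name individual pups and cerebella. Alternatives were DESeq2 1.42.0, no low-count filter, a replicate block, a sex term, all P2 libraries in 1 fit, leaving out each library, other doublet treatments and the unnamed granule clusters added; the last and the removal of the top 5% of doublet scores were chosen after seeing the data.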

Additional observations from a re-analysis of the deposited data

Results flagged for a closer look

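At P2 the Col11a1 level of Insm1 mutant 1, 16 CPM, lay far from the other 3 Insm1 mutants relative to the range of its group (gap over range 0.955). Of 18 groups of 4 libraries examined in this way 1 was marked, and chance marks about 1 in 20.

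At P7 over all kept cells, 7 members had mutant effects that differed between the alleles by the interaction test. The difference, Tead1/2 effect minus Insm1 effect on the log2 scale, was 1.80 (SE 0.30, adjusted p = 0.00922) for Col23a1 and 1.34 (SE 0.22, adjusted p = 0.00880) for Col25a1. It was 1.56 (SE 0.35, adjusted p = 0.0332) for Col22a1, 1.72 (SE 0.31, adjusted p = 0.0127) for Col14a1 and 1.65 (SE 0.30, adjusted p = 0.0132) for Col26a1. For Col13a1 it was 1.32 (SE 0.27, adjusted p = 0.0238). Only Col18a1 had a lower Tead1/2 effect among these, at -0.64 (SE 0.15, adjusted p = 0.0414). Of the 6 members with a positive difference, Col14a1 and Col26a1 were not called in the Insm1 mutants.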

How the results depend on the processing

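Counts of called members that changed with the processing are as follows. At P2 the Insm1 comparison called 1 member, 4 under DESeq2 and 3 without a low-count filter (0.539% of all genes). The Tead1/2 comparison called 0, 3 under DESeq2, 6 without a low-count filter (3.14% of all genes) and 2 with a replicate block (1.17%), although the P2 numbers did not pair the libraries (correlations of same-numbered deviations from -0.21 to 0.36). In fibroblast-like cells the Insm1 count was 0, 11 with doublets kept and 6 with only the highest 5% of doublet scores removed, and the Tead1/2 count was 1, 12 and 5, where 16.3% and 13.2% (Insm1) and 23.1% and 18% (Tead1/2) of all genes were called under those treatments, against 0.0130% and 0.583%. The difference between alleles at P7 called 7, and 19 without a low-count filter, beside 5.51% of all genes.

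Leaving out each library in turn gave 1 to 2 called members for Insm1 at P2 (0.323% to 0.667% of all genes), 0 to 5 for Tead1/2 at P2 (0% to 3.19%) and 0 for their difference (0% to 0.0381%). Over all P7 cells it gave 8 to 18 for Insm1, beside 18.1% to 32.7% of all genes, 19 to 30 for Tead1/2, beside 30.8% to 47.6%, and 1 to 8 for the difference, beside 1.28% to 5.69%. The lowest counts came without Insm1 control 2 (8, and 1 for the difference) and without Tead1/2 control 2 (19), the omissions with 18.1%, 1.28% and 30.8% of all genes called. In the granule lineage it gave 10 to 12 and 11 to 19 (12.5% to 23.8% and 10.7% to 22.3% of all genes), and in fibroblast-like cells 0 and 0 to 2 (0.0117% to 0.0349% and 0% to 1.64%). Directions reversed for Col9a3 in the Tead1/2 comparison over all P7 cells, from 0.09 to -0.073 with doublets kept and -0.051 with the highest 5% of scores removed, neither called. The difference of Col9a1 between alleles at P7 (-0.05, not called) ranged from -0.25 to 0.16 and was 0.16 without Insm1 control 1 and 0.05 without Tead1/2 mutant 1. Of the other values under these alternatives, 816 of those with a library left out kept their direction and side of the threshold and 88 lost the call. The replicate block at P7, which follows the dissection, ended the Insm1 call of Col16a1 (0.70, adjusted p = 0.0644). The cause was not tested for any of these.

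Counting depth limits low members most: 10 of 44 were not tested in the granule lineage and 17 in fibroblast-like cells, where a class held as few as 30 cells in a library. With 2 controls per allele at P7, several calls rest on a single control.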

Other observations

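The mutant-minus-control difference of several members over all P7 cells lay in other classes than their highest level. For Col9a1 in the Insm1 mutants 30.01% of the difference lay in unnamed cluster 19, 24.6% in the granule lineage, 16.7% in unnamed cluster 27 and 12.6% in muscle-like cells. In the Tead1/2 mutants 32.2% lay in cluster 27, 20.8% in muscle-like cells and 20.2% in the oligodendrocyte lineage. Cluster 19 held 1213 cells, 4 of them from controls, and cluster 27 held 2428, with 0 from controls; 9 and 8 of the 12 granule neuron markers were raised in them, and they were left unnamed.

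Col28a1 had 61.1% of its Insm1 difference in the granule lineage and 58.7% of its Tead1/2 difference in muscle-like cells. For Col16a1 the Insm1 difference lay 53.9% in astroglia and the Tead1/2 difference 82.4% in fibroblast-like cells. Astroglia made up 4.12% and 6.07% of kept cells in the Insm1 controls and 6.41%, 8.15% and 10.4% in the Insm1 mutants. With doublets kept the astroglia shares were 8.90% and 12.5% against 10.1%, 12.1% and 14.8%, with overlap. The part of astroglia in the Col16a1 difference was not tested. Col14a1 had 61.8% of its Tead1/2 difference in muscle-like cells and Col11a2 62.3% in the oligodendrocyte lineage. Oligodendrocyte-lineage cells numbered 88 and 58 in the Tead1/2 controls and 262, 253 and 242 in the mutants, with 9 of 11 markers called higher and a median log2 change of 1.52. With doublets kept these cells numbered 415 and 307 in the controls and 491, 565 and 529 in the mutants. That was 4.29% and 4.79% of cells against 6.54%, 5.81% and 6.95%, so the size of the rise depends on the doublet treatment. The part of oligodendrocyte-lineage cells was not tested. Within the granule lineage, progenitor-like cells made up 49.1% and 52.6% of cells in the Insm1 controls and 61.5%, 69.6% and 76.2% in the Insm1 mutants. In the Tead1/2 libraries they made up 59.3% and 55.1% in controls and 70.7%, 76.4% and 74.1% in mutants. These shares leave out unnamed clusters 19 and 27, almost wholly mutant, with granule neuron markers raised. With both added, the Insm1 controls had 2090 progenitor-like of 4258 cells and 1664 of 3164, and the mutants 1346 of 2840, 1256 of 2556 and 703 of 1310. The Tead1/2 controls had 2345 of 3955 and 1520 of 2758, and the mutants 1482 of 2670, 1319 of 2491 and 1162 of 2074. The higher mutant shares depend on which clusters are counted.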
